A study of Homo sapiens with 8 samples.

Results

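Potassium channel genes were followed in H1975 and HCC44, established human lung cancer cell lines, after culture with the degrader ACBI1 or with its solvent DMSO. The genes were chosen by symbol alone. They are the 99 of 61228 gene names in the count tables that read KCN followed by letters and digits without a hyphen, so hyphenated names such as KCNK15-AS1 are outside the set. Of the 99, 52 passed the filter on low counts and were tested, and 47 were not. The set holds pore-forming subunits, auxiliary subunits, and 4 symbols that are neither: KCNRG, KCNMB3P1, and KCNQ1OT1 and KCNQ1DN, which GENCODE 29 types as antisense.

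Exposure to DMSO or ACBI1 lasted 96 hours in both lines, which gave 4 groups of 2 libraries. The labels give both lines as wild type and the ACBI1 concentration as 1 mM, a unit that is uncertain, since degraders are used at much lower doses. H1975 is an adenocarcinoma line with mutant EGFR and HCC44 another lung cancer line, and each is a single line that stands for no other tumour. ACBI1 is a bifunctional degrader. It links the VHL ubiquitin ligase to SMARCA2, SMARCA4 and PBRM1, which are parts of SWI/SNF complexes that remodel chromatin. The labels do not say whether replicates came from separate cultures, so p-values measure the spread between these libraries, which may be technical.

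Values are CPM, counts scaled to a fixed library size, with sizes corrected by TMM factors, given for replicate 1 and replicate 2 in that order. Log2 fold changes carry their standard error. The edgeR quasi-likelihood test supplied the p-values, adjusted by Benjamini-Hochberg over all 21307 genes tested. A gene was called at an adjusted p under 0.05, and "rose" and "fell" are used of called genes only. Counts assigned to genes were 62467286 to 70455517 per library. The 6 epithelial markers summed to 5393 and 5137 CPM with DMSO and 2808 and 2331 CPM with ACBI1 in H1975, where KRT7, KRT8, KRT18 and KRT19 were all lower with ACBI1. In HCC44 they summed to 939.8 and 979.9 CPM with DMSO and 1199 and 1658 CPM with ACBI1. There KRT7 was higher with ACBI1 (423 and 459 to 751 and 1122 CPM) and KRT8 lower (228 and 205 to 146 and 157 CPM). KRT18 and KRT19 overlapped between the treatments in HCC44. The T cell marker CD3E and the fibroblast marker DCN had no count in any library. The 4 immune markers summed to 0.768 to 3.54 CPM over both lines, with PTPRC at most 0.048. The 5 fibroblast markers, mostly COL1A1, summed to 77.4 and 53.8 CPM with DMSO and 43.0 and 37.6 CPM with ACBI1 in H1975, and to 94.3 and 75.8 CPM and 204.5 and 409 CPM in HCC44. The sums follow COL1A1, and other members ran the other way. In H1975 COL1A2 was also lower with ACBI1, but ACTA2 (5.51 and 4.97 to 12.6 and 12.2 CPM) and PDGFRB were higher. In HCC44 PDGFRB was also higher with ACBI1, but COL1A2 and ACTA2 were lower. The lung lineage factor NKX2-1 was at 19.2 to 27.5 CPM in H1975 and at most 0.0318 CPM in HCC44. Of the other lung markers, the surfactant genes SFTPB and SFTPC were at most 0.266 and 0.0566 CPM in any library. NAPSA was at 0.891 to 1.96 CPM in H1975 and 0.160 to 0.477 CPM in HCC44. Among neuroendocrine markers SYP moved with ACBI1, from 1.79 and 0.873 to 12.3 and 16.3 CPM in H1975 and from 0.223 and 0.219 to 2.40 and 2.09 CPM in HCC44, while CHGA, INSM1 and NCAM1 stayed at or under 0.048 CPM in both lines. The part of these marker shifts in the channel results was not tested. In bulk RNA, fewer cells with a transcript and less transcript per cell cannot be told apart.

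Potassium channels let potassium leave or enter cells along its gradient and so set the membrane potential. Voltage-gated channels open on depolarization, calcium-activated channels open when intracellular calcium rises, inward rectifiers hold the resting potential or couple it to metabolism and G proteins, and tandem-pore-domain channels carry leak current. Modifier Kv subunits form no channel alone and change the behaviour of partner subunits, and auxiliary subunits tune gating or delivery to the membrane. In epithelial and lung cancer cells such channels are known for roles in cell volume, secretion, migration and proliferation.

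**Figure D1:**
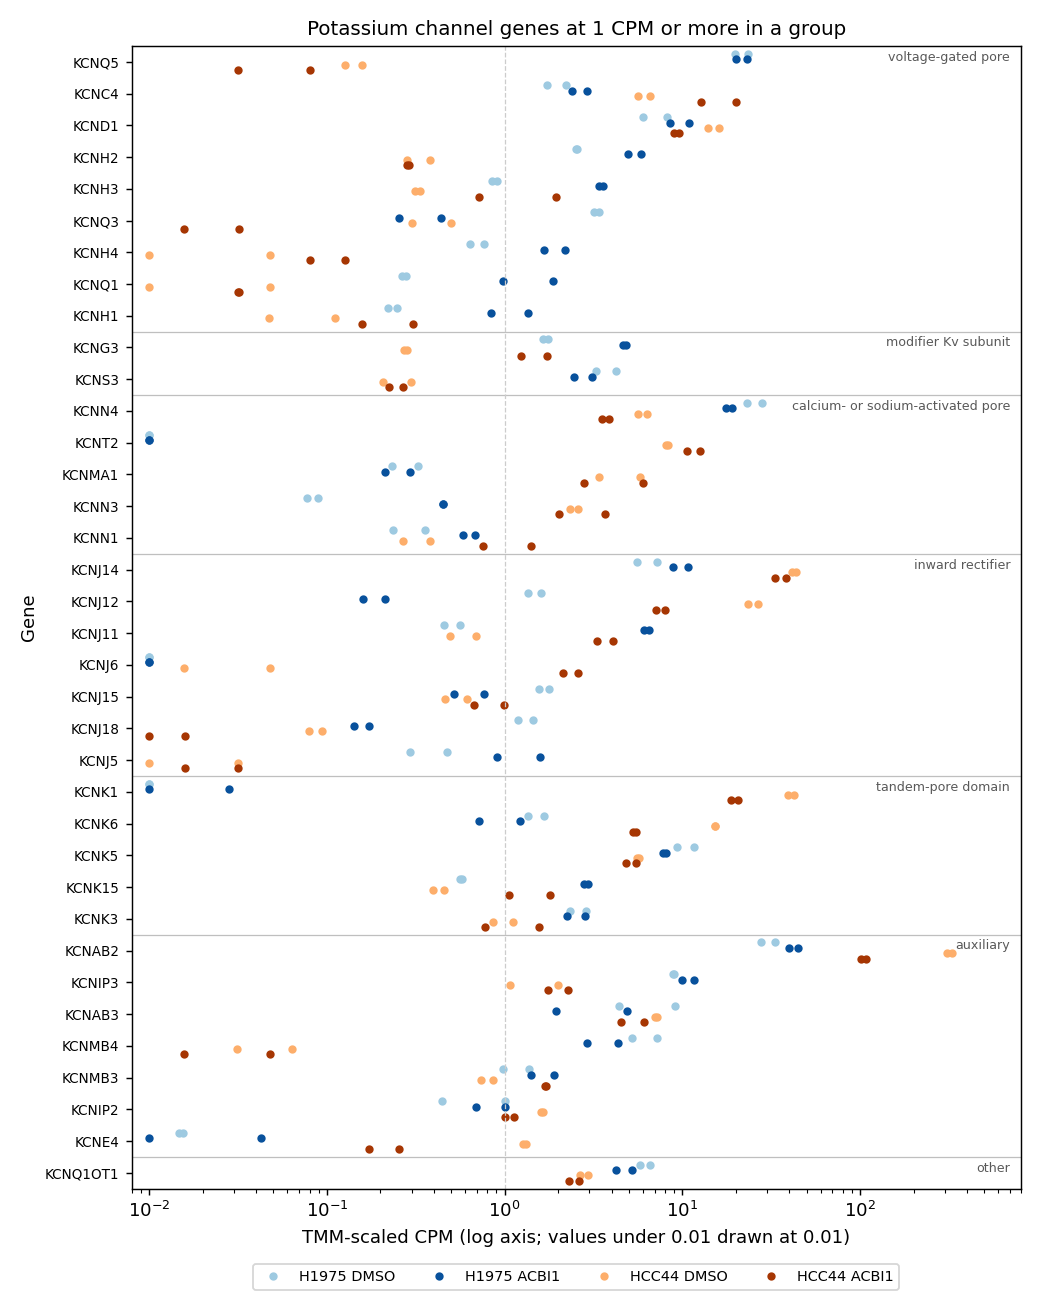
TMM-scaled CPM on a log axis for 36 of the 40 potassium channel genes whose mean reached 1 CPM in some group, ordered by class and by their highest group mean. Each point is 1 library, coloured by group, and the dashed line marks 1 CPM. KCNAB2 in HCC44 DMSO lies furthest to the right, at 309 and 329.9 CPM.

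A minority of the family was present at appreciable levels in either line. A group mean of at least 1 CPM was reached by 24 genes in H1975 DMSO, 26 in H1975 ACBI1, 18 in HCC44 DMSO and 25 in HCC44 ACBI1. At 5 CPM the counts were 12, 11, 12 and 11 in the same order, so the order of the groups depends on the level asked for. In all, 40 of the 99 reached 1 CPM in some group, 11 in both DMSO groups and 9 in all 4 groups. At the other end, 10 genes, among them the heart and muscle inward rectifier KCNJ2 and the voltage-gated KCNA4 and KCNA5, had no read in any library. A total of 0 counts in a library allows up to 3 counts, which covers counting error only.

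Summed over the 99 genes, the level in H1975 was 185 and 172 CPM with DMSO and 204 and 200 CPM with ACBI1. In HCC44 it was 517 and 525 CPM with DMSO and 258 and 269 CPM with ACBI1. HCC44 DMSO was the high group. KCNAB2, a cytoplasmic beta subunit of Kv channels, made up 59.9 and 62.8% of the family's reads there, against 15 and 19.2% in H1975 DMSO. The voltage-gated pore genes were the largest pore class in H1975 DMSO, at 59.1 and 55.2 CPM, and were lower in HCC44 DMSO, at 31.7 and 27.9 CPM. Inward rectifiers had the opposite order, with 13.1 and 10.8 CPM in H1975 DMSO and 71.7 and 66.6 CPM in HCC44 DMSO, as had tandem-pore genes, with 14.7 and 16.2 and 65.2 and 61.9 CPM. The sums weigh long and abundant transcripts most and were not tested.

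**Figure D2:**
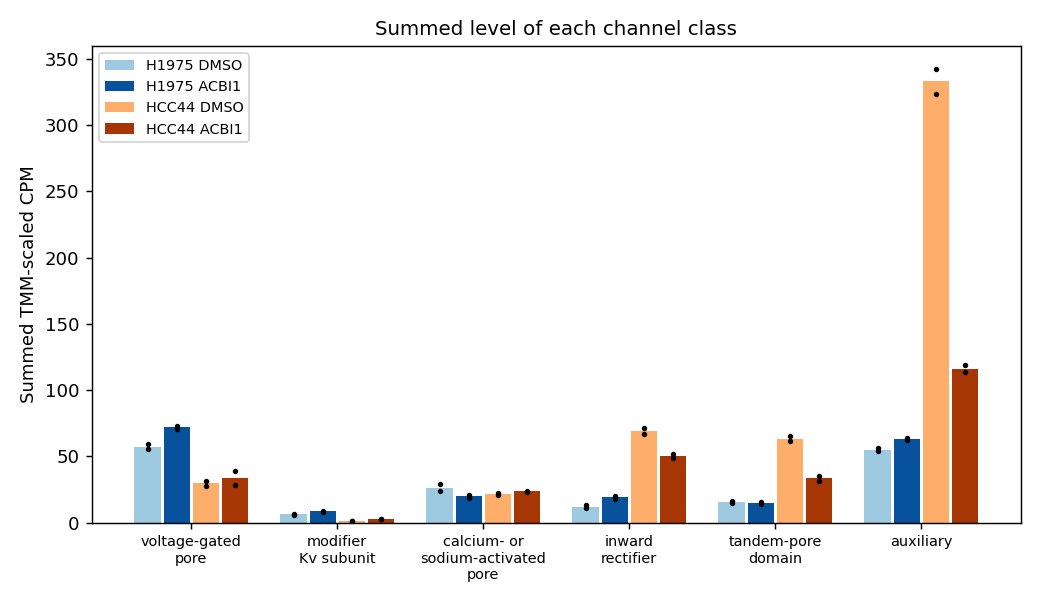
Summed TMM-scaled CPM of the genes of each class. Bars are means of 2 libraries, points are the libraries, and colours are the 4 groups. The auxiliary class in HCC44 DMSO reached 324 and 343 CPM, and with ACBI1 it was at 114 and 119 CPM.

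To compare genes with each other, levels were divided by the merged exon length, in CPM per kb. In H1975 DMSO the highest level was that of KCNN4, the intermediate-conductance calcium-activated channel of epithelia, at 7.51 CPM per kb. It was followed by KCNAB2 at 3.19, the voltage-gated KCNQ5 at 2.85 and the acid-sensitive leak channel KCNK5 at 2.79 CPM per kb. KCNAB3, KCNJ14 and KCNMB4 were also among the 8 highest, at 1.48, 1.47 and 1.27 CPM per kb. Before division by length KCNAB2 was at 30.4 ± 3.74 CPM (SD, n = 2), KCNQ5 at 21.6 ± 2.39 CPM and KCNK5 at 10.5 ± 1.67 CPM, and the per-kb levels of these 3 neighbours lay within their spread.

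In HCC44 DMSO KCNAB2 led at 33.5 CPM per kb. The leak channel KCNK1 came next at 11.2 CPM per kb, before KCNJ14 at 9.81 and KCNJ12 at 4.46, both inward rectifiers. KCND1, KCNK6, KCNN4 and KCNAB3 followed at 2.58 to 1.55 CPM per kb. The 4 genes KCNAB2, KCNAB3, KCNJ14 and KCNN4 were among the 8 highest in both lines. With the longest transcript in place of merged exons, 6 of the 8 genes in H1975 and 7 in HCC44 remained among the 8 highest. KCNJ14 shares 25% of its exon bases with other annotated genes, so its counts are uncertain in that respect.

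The lines expressed different channels before any degrader. Between HCC44 DMSO and H1975 DMSO, 43 of the 52 tested genes were called (82.7%), against 67.9% of all genes tested. Of these, 20 were higher in HCC44 and 23 in H1975, against 31.6 and 36.4% of all genes tested. All 14 tested voltage-gated pore genes were called, 10 of them higher in H1975. KCNH1 was not called with DESeq2, nor without H1975 DMSO replicate 1 (-1.48) or 2 (-1.58) or HCC44 DMSO replicate 2 (-1.07). KCNH3 was not called without HCC44 DMSO replicate 1 (-1.476) or 2 (-1.395). The median absolute log2 difference was 2.88 over the 52 genes and 0.89 over all genes tested. The filter also kept genes with enough counts in 1 line alone, such as KCNK1 and KCNT2, which favours large differences. Filtered within each line, 41 members passed in H1975 and 42 in HCC44. The called share and the median are therefore not read as a trait of channels. Line and culture cannot be told apart here.

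KCNK1 and KCNT2 were read in HCC44 DMSO and not in H1975 DMSO. KCNK1, a leak channel of epithelia and brain, was at 42.3 and 39.1 CPM in HCC44 DMSO. H1975 DMSO had no KCNK1 read in either library. Against a floor of 3 counts over the group, HCC44 was 1790-fold higher (lower 95% limit from counting error 1456). KCNT2, a sodium-activated channel, was at 8.09 and 8.35 CPM in HCC44 DMSO and had no read in the 4 H1975 libraries. Its DMSO difference was 362-fold against the same floor (lower 95% limit from counting error 294). KCNE4, an auxiliary subunit that inhibits some voltage-gated channels, had 164 counts in HCC44 DMSO and 2 in H1975 DMSO, a depth-scaled ratio of 85.4 (95% limits from counting error 23.3 and 711). KCNN3, a small-conductance calcium-activated channel, was at 2.59 and 2.32 CPM in HCC44 DMSO and 0.0777 and 0.0887 CPM in H1975 DMSO. KCNJ12 was at 26.6 and 23.5 CPM in HCC44 DMSO and 1.60 and 1.36 CPM in H1975 DMSO (log2 fold change 4.08 ± 0.19 (SE), adjusted p 1.33e-08). No library of either line overlapped the libraries of the other for these genes.

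H1975 held the larger stock of voltage-gated transcripts. KCNQ5, of the family that carries the neuronal M-current, was at 19.9 and 23.3 CPM in H1975 DMSO and 0.127 and 0.157 CPM in HCC44 DMSO (log2 fold change -7.23 ± 0.25 (SE), adjusted p 1.92e-09). KCNMB4, a beta subunit of the large-conductance calcium-activated channel, had 814 counts in H1975 DMSO and 6 in HCC44 DMSO, a depth-scaled ratio of 130.2 (95% limits from counting error 59.6 and 356). Its pore partner KCNMA1 ran the other way, with 0.233 and 0.325 CPM in H1975 DMSO and 3.39 and 5.75 CPM in HCC44 DMSO, so the highest levels of pore and beta subunit lay in different lines. KCNMA1 is outside the naming rule and is named after its values were seen.

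In H1975, more channel genes rose than fell with ACBI1. Of the 52 tested, 20 were called, 38.5% against 31.3% of all genes tested. The 15 that rose made up 28.9% of the tested members, against 14.6% of all genes tested, and the 5 that fell 9.62%, against 16.7%. The median log2 fold change was 0.25 over the 52 genes and -0.01 over all genes tested. With library totals in place of TMM factors the median of all genes tested was 0.18, and 17 members rose and 4 fell.

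KCNJ11 had the largest rise. It encodes the pore of ATP-sensitive potassium channels, which couple the membrane potential to the energy state of the cell (GENCODE 29 on GRCh38, chromosome 11, 17385859 to 17389331, minus strand). It was at 0.559 and 0.459 CPM in the DMSO libraries of H1975 and 6.46 and 6.07 CPM in its ACBI1 libraries, log2 fold change 3.62 ± 0.26 (SE), adjusted p 1.17e-05. Both ACBI1 libraries lay far above both DMSO libraries. Inward rectifiers as a class held 4 of the rises and 3 of the 5 falls. Of the 9 tested members 7 were called (77.8%, against 31.3% of all genes tested). The near-identical KCNJ12 and KCNJ18 are both counted among those falls. KCNJ5 and KCNJ9, subunits of G protein-gated channels, rose from low levels, KCNJ5 from 0.295 and 0.473 to 0.904 and 1.58 CPM and KCNJ9 from 6 to 47 counts, a depth-scaled ratio of 7.09 (95% limits from counting error 3.02 and 20.3). KCNJ14 rose from 7.18 and 5.55 to 10.8 and 8.84 CPM. The KCNJ5 rise was not called without DMSO replicate 1 (1.38) or ACBI1 replicate 2 (1.25), nor that of KCNJ14 without DMSO replicate 2 (0.50) or ACBI1 replicate 1 (0.51).

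Among voltage-gated pore genes, 7 of 14 rose in H1975 and 1 fell (50 and 7.14%, against 14.6 and 16.7% of all genes tested). The KCNH genes, relatives of ether-à-go-go, supplied 4 of the 7. KCNH2, the hERG channel of cardiac repolarization, went from 2.56 and 2.53 to 5.83 and 4.96 CPM (log2 fold change 1.08 ± 0.22 (SE), adjusted p 0.00377). KCNH3 went from 0.854 and 0.902 to 3.40 and 3.58 CPM, KCNH4 from 0.761 and 0.636 to 1.68 and 2.18 CPM, and KCNH1 from 0.248 and 0.222 to 0.838 and 1.36 CPM. In each the ACBI1 libraries lay above the DMSO libraries. KCNH1 shares 53% of its exon bases with other annotated genes. KCNH4 was not called without DMSO replicate 2 (1.39) or ACBI1 replicate 2 (1.28).

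The KCNQ genes moved in both directions in H1975. KCNQ1, a channel of heart and of secretory epithelia, rose from 0.280 and 0.266 to 0.984 and 1.87 CPM, with the ACBI1 libraries apart from each other. KCNQ3, a subunit of the M-channel, fell from 3.20 and 3.42 to 0.439 and 0.255 CPM (log2 fold change -3.24 ± 0.34 (SE), adjusted p 9.57e-05). KCNQ5 was at 19.9 and 23.3 CPM with DMSO and 20.1 and 23.1 CPM with ACBI1, with a log2 fold change near 0, with an SE of 0.16.

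Other rises in H1975 were those of KCNK15, KCNG3, KCNN3 and KCNAB2. KCNK15, a tandem-pore-domain subunit, went from 0.559 and 0.577 to 2.95 and 2.81 CPM. KCNG3, a modifier subunit of Kv channels, went from 1.65 and 1.75 to 4.83 and 4.64 CPM. KCNN3 went from 0.0777 and 0.0887 to 0.452 and 0.453 CPM. KCNAB2 went from 27.8 and 33.1 to 39.8 and 45.0 CPM (log2 fold change 0.48 ± 0.11 (SE), adjusted p 0.00659), and was not called without DMSO replicate 1 (0.35) or ACBI1 replicate 2 (0.41). KCNAB2 was the only auxiliary subunit called among 10 tested in H1975 (10%, against 31.3% of all genes tested). KCNK15 shares 21.7% of its exon bases with other genes, among them KCNK15-AS1, which was at 0.513 and 0.399 CPM with DMSO and 1.48 and 1.74 CPM with ACBI1. Without the strand setting these reads cannot be told apart where the genes overlap.

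Beside KCNQ3, the falls in H1975 were KCNJ12, KCNJ18, KCNJ15 and KCNN4. KCNJ12 and KCNJ18 encode near-identical inward rectifiers of muscle, so reads can be split between them. KCNJ12 went from 1.60 and 1.36 to 0.160 and 0.212 CPM and KCNJ18 from 1.44 and 1.18 to 0.173 and 0.141 CPM. Their sum was 3.04 and 2.54 CPM with DMSO and 0.333 and 0.354 CPM with ACBI1, and the groups did not overlap. KCNJ15 went from 1.79 and 1.55 to 0.519 and 0.764 CPM, and was not called without ACBI1 replicate 1 (-1.09). KCNN4 went from 28.1 and 23.1 to 19.1 and 17.6 CPM (log2 fold change -0.48 ± 0.15 (SE), adjusted p 0.0282). That fall was not called with upper-quartile factors (-0.41) or library totals (-0.27), nor without DMSO replicate 1 (-0.33), ACBI1 replicate 1 (-0.50) or ACBI1 replicate 2 (-0.40).

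In HCC44, rises and falls were balanced. Of the 52 tested, 20 were called, 38.5% against 34.9% of all genes tested. The 10 rises and the 10 falls were each 19.2% of the members, against 17.5 and 17.4% of all genes tested. The median log2 fold change was 0.09 over the members and 0.01 over all genes tested. KCNJ14 and KCNAB3, among the 8 highest per kb in HCC44 DMSO, were not called (log2 fold changes -0.25 ± 0.15 and -0.43 ± 0.45).

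KCNJ6 had the largest rise in HCC44. It encodes a G protein-gated inward rectifier of neurons (GENCODE 29 on GRCh38, chromosome 21, 37607376 to 38121345, minus strand). It had 4 reads with DMSO and 298 after ACBI1, a depth-scaled ratio of 74.9 (95% limits from counting error 28.9 and 277), and the ACBI1 libraries stood at 2.13 and 2.60 CPM. The 4 H1975 libraries held no KCNJ6 read, so H1975 gave no fold change, and the fitted difference between the lines had no usable standard error. Without DMSO replicate 1 the fitted HCC44 change of KCNJ6, 6.14, was 7.07. Its fellow subunits KCNJ3, KCNJ5 and KCNJ9 had at most 2 counts in any HCC44 library.

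Voltage-gated pore genes held 3 rises and 2 falls in HCC44 (21.4 and 14.3% of those tested, against 17.5 and 17.4% of all genes tested). KCNC4 and KCNH3 were among the rises. KCNC4, a fast voltage-gated channel, went from 6.61 and 5.64 to 12.7 and 20.1 CPM (log2 fold change 1.42 ± 0.24 (SE), adjusted p 0.000934). KCNH3 went from 0.334 and 0.314 to 0.720 and 1.95 CPM, and its log2 fold change of 2.04 was 1.15 without ACBI1 replicate 2. Modifier subunits also rose: KCNG3 went from 0.270 and 0.282 to 1.23 and 1.73 CPM, and KCNF1 from 8 to 96 counts, a depth-scaled ratio of 12.1 (95% limits from counting error 5.88 and 28.7). KCNF1 stayed under 1 CPM in every library and is named after its values were seen. KCNN1, a small-conductance calcium-activated channel, went from 0.382 and 0.267 to 0.752 and 1.42 CPM, and KCNMB3, an auxiliary subunit, from 0.859 and 0.737 to 1.68 and 1.70 CPM. KCNMB3 shares 47.5% of its exon bases with other genes, PIK3CA among them. KCNN1 was not called without DMSO replicate 2 (1.51) or ACBI1 replicate 2 (1.21), nor KCNMB3 without DMSO replicate 2 (0.98).

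The falls in HCC44 included its most abundant channel transcripts. KCNAB2 fell from 309 and 329.9 to 102 and 108 CPM (log2 fold change -1.60 ± 0.11 (SE), adjusted p 3.55e-06), the lowest adjusted p of the family in this comparison. KCNK1 fell from 42.3 and 39.1 to 20.5 and 18.9 CPM (log2 fold change -1.05 ± 0.16 (SE), adjusted p 0.000852). KCNK6, another tandem-pore subunit, fell from 15.2 and 15.2 to 5.30 and 5.49 CPM. In these genes every ACBI1 library lay below both DMSO libraries. KCNJ12 fell from 26.6 and 23.5 to 7.14 and 7.96 CPM, KCND1, a transient voltage-gated channel, from 16.0 and 14.0 to 9.63 and 9.0 CPM, and KCNN4 from 6.36 and 5.60 to 3.55 and 3.87 CPM. Among less abundant auxiliary genes KCNE4 fell from 1.27 and 1.32 to 0.256 and 0.173 CPM, and KCNE3, named after its values were seen, from 0.286 and 0.251 to 0.0480 and 0.0787 CPM. The KCND1 fall was not called without DMSO replicate 1 (-0.59) or ACBI1 replicate 2 (-0.64).

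**Figure D3:**
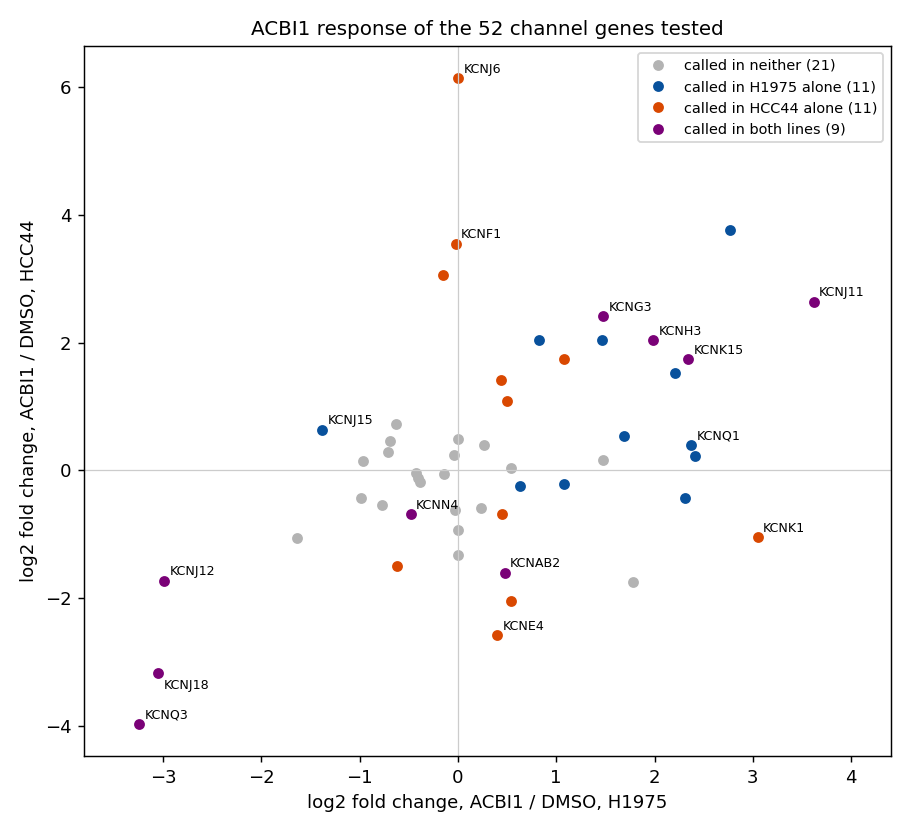
Log2 fold change of ACBI1 over DMSO in H1975 (horizontal) and in HCC44 (vertical) for the 52 tested genes, coloured by the lines in which they were called. The 9 genes called in both lines are labelled, with 6 others. KCNJ11 lies at 3.62 and 2.64, and the H1975 values of KCNK1 and KCNE4 rest on 2 to 5 counts. KCNJ6 had no read in H1975, and its H1975 value of 0 is a placeholder.

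Changes in the same direction in both lines were found for 8 of the 52 genes, 15.4% against 12.9% of all genes tested. KCNJ11, KCNK15, KCNG3 and KCNH3 rose in both, as did 5.83% of all genes tested, and KCNJ12, KCNJ18, KCNQ3 and KCNN4 fell in both, as did 7.08%. KCNAB2 was called in opposite directions. The lines share no library. Another 11 genes were called in H1975 and not in HCC44, 11 in HCC44 and not in H1975, and 21 in neither. Of all genes tested, 31.3% were called in H1975 and 34.9% in HCC44. The share called in 1 line alone was not worked out for all genes, so these counts are not read as a trait of channels. A further rule asked for a log2 fold change of 1 or more beside the adjusted p. It was met by 16 of the 52 genes in H1975, 18 in HCC44, 9 for the difference and 42 between the DMSO groups, against 12.4, 14.7, 9.31 and 42.7% of all genes tested. Across all 52 genes, the log2 fold changes of H1975 and HCC44 had a Pearson r of 0.438 (Spearman rho 0.359). Genes without a read in H1975, such as KCNJ6 and KCNT2, enter with an H1975 value of 0, which is a placeholder and not a measured change. They also count above as not called in H1975. For the 18 that reached 1 CPM in both lines, r was 0.726 (rho 0.626). These are descriptions across genes, which are not independent replicates and which share libraries within a line.

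KCNJ11 was under 1 CPM with DMSO in both lines and rose in both. It was at 0.493 and 0.690 CPM in HCC44 DMSO and 3.33 and 4.08 CPM in HCC44 ACBI1 (log2 fold change 2.64 ± 0.26 (SE), adjusted p 3.49e-05). The HCC44 ACBI1 libraries lay below the H1975 ACBI1 libraries and above all 4 DMSO libraries. The DMSO levels differed between the lines by 0.22 ± 0.29 on the log2 scale, which was not called. The difference between the responses was -0.98 ± 0.36, with an adjusted p of 0.0864. Taking the replicate number as a block, that difference was called at -0.97.

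ATP-sensitive channels are built from an inward rectifier pore and a sulfonylurea receptor, and the transcripts of the partners were measured beside it. ABCC8, the receptor that pairs with KCNJ11 in pancreatic beta cells, had 1 read in the 8 libraries. ABCC9, the receptor of muscle channels, fell in H1975 from 10.8 and 8.64 to 2.35 and 1.36 CPM (log2 fold change -2.39 ± 0.27 (SE), adjusted p 0.000129). In HCC44 it was at 0.731 and 0.752 CPM with DMSO and 0.944 and 0.944 CPM with ACBI1, which was not called. KCNJ8, the other pore subunit of this channel type, had 2 to 7 counts in each H1975 library and none in HCC44.

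**Figure D4:**
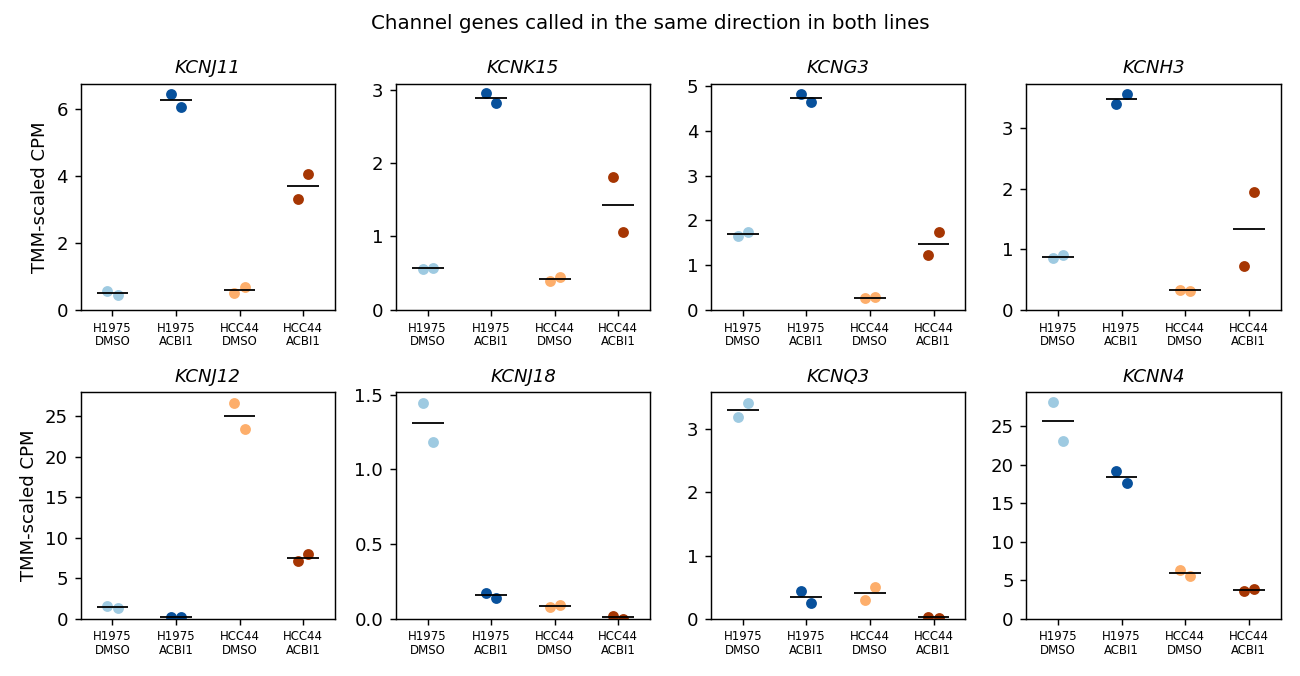
TMM-scaled CPM of the 8 genes called in the same direction in both lines, with the rises in the upper row and the falls in the lower. Points are libraries, bars are means of 2, and each panel has its own axis from 0. In all 8 panels both ACBI1 libraries of a line lie on the same side of its DMSO libraries.

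The other shared rises were smaller. KCNK15 went from 0.397 and 0.455 to 1.81 and 1.05 CPM in HCC44 (log2 fold change 1.74 ± 0.32 (SE), adjusted p 0.00178), beside its H1975 log2 fold change of 2.34 ± 0.30. KCNG3 had log2 fold changes of 1.48 ± 0.23 in H1975 and 2.42 ± 0.29 in HCC44, and KCNH3 of 1.99 ± 0.38 and 2.04 ± 0.44. Levels after ACBI1 were higher in H1975 for all 4 shared rises, and no H1975 ACBI1 library overlapped an HCC44 ACBI1 library. None of the 4 differences between the lines was called (adjusted p 0.0864 to 0.987). An adjusted p above the threshold does not show that the responses were equal.

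Of the shared falls, KCNQ3 had the steepest fitted changes, -3.24 ± 0.34 in H1975 and -3.98 ± 0.62 in HCC44. In HCC44 it had 51 reads with DMSO and 3 after ACBI1, a depth-scaled ratio of 16.9 (95% limits from counting error 5.47 and 84.7). KCNJ18 in HCC44 had 11 reads with DMSO and 1 after ACBI1, a depth-scaled ratio of 10.9 (95% limits from counting error 1.59 and 471). That call was lost with DESeq2 and without DMSO replicate 1 (-3.29), DMSO replicate 2 (-3.05) or ACBI1 replicate 2 (-2.31), and the fitted value was -5.57 without ACBI1 replicate 1. The KCNJ12 to KCNJ18 count ratio was 0.923 to 1.5 in the 4 H1975 libraries and 250 to 446 in the 3 HCC44 libraries with a KCNJ18 read. Both genes lie on chromosome 17, at 21376197 to 21419872 and 21692523 to 21704612 in GENCODE 29 on GRCh38. KCNN4 fell by 0.48 in H1975 and 0.69 in HCC44 on the log2 scale, without a called difference (adjusted p 0.552).

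Bases upstream of the start are shown for 3 genes that carry the results above and have a single start window in the RefSeq table (GRCh38.p14): KCNG3, which rose in both lines, KCNJ6, which rose in HCC44, and KCNK1, which had reads in HCC44 alone among DMSO libraries. RefSeq and GENCODE 29 place the starts differently. Of the 250 bases before the RefSeq start, 115 for KCNG3 and 102 for KCNK1 are exonic in GENCODE 29 and are left out, as is the whole window of KCNN4, which is exonic there. The KCNJ6 window holds no exon and lies inside the longer GENCODE 29 gene. The runs are 5′ to 3′ on the gene's strand, and capitals mark GC boxes, GGGCGG on either strand, overlaps included.
KCNG3: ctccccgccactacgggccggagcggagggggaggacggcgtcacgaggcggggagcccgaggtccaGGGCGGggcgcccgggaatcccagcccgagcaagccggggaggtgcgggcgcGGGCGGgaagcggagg
KCNJ6: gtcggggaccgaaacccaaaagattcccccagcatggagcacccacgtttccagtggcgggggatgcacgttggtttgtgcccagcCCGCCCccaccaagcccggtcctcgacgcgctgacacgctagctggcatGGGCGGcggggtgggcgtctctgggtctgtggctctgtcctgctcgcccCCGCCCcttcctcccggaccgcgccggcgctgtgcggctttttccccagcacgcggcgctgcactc
KCNK1: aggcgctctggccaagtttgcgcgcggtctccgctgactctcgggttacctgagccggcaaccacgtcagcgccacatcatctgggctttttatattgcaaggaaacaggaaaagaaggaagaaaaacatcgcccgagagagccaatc
They lie at chr2:42494098-42494232 (minus strand), chr21:37916458-37916707 (minus) and chr1:233613856-233614003 (plus). The 135 bases of KCNG3 held 2 GC boxes and 19 CpG dinucleotides, the 250 of KCNJ6 3 and 25, and the 148 of KCNK1 0 and 11. Over the same stretches of all 35116 windows, 23.1, 42.6 and 25.5% held a GC box. In the full 250 bases a box was present in 33 of the 51 channel genes with a single window (64.7%). The letters describe these windows, not sites of binding, and which start the lines use was not measured.

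A test of the difference between the responses, HCC44 minus H1975, called 10 of the 52 genes (19.2%, against 18.6% of all genes tested). The difference was positive for 4 and negative for 6, against 10.2 and 8.40% of all genes tested. KCNAB2 had the lowest adjusted p: it rose in H1975 and fell in HCC44, with a difference of -2.08 ± 0.15 (adjusted p 3.40e-05). Its DMSO level was 10.5-fold higher in HCC44, and after ACBI1 it was at 39.8 and 45.0 CPM in H1975 and 102 and 108 CPM in HCC44, so the lines lay closer together and still apart.

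KCND1 was at 8.25 and 6.04 CPM with DMSO and 10.9 and 8.54 CPM with ACBI1 in H1975 and fell in HCC44, a difference of -1.13 ± 0.27 (adjusted p 0.0142). KCNJ14 rose in H1975 and was not called in HCC44, a difference of -0.88 ± 0.21 (adjusted p 0.0173). For KCNJ12, which fell in both, the difference of 1.25 ± 0.31 (adjusted p 0.0175) means a steeper fitted fall in H1975. These differences rest on few libraries. KCND1 was not called without HCC44 DMSO replicate 1 (-1.03). KCNJ14 was not called without that library (-0.84) or HCC44 ACBI1 replicate 2 (-0.78). KCNJ12 was not called without H1975 DMSO replicate 1 (1.14), H1975 ACBI1 replicate 1 (1.02) or HCC44 DMSO replicate 2 (1.17). The count of 10 was 6 without H1975 DMSO replicate 1 and 5 without HCC44 DMSO replicate 1.

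The remaining tested genes were not called. Neither response was called for 21 genes. Of these, 12 reached 1 CPM in a group, among them the leak channels KCNK3 and KCNK5, the calcium sensors KCNIP2 and KCNIP3, the modifier KCNS3, the beta subunits KCNAB3 and KCNMB4, the voltage-gated KCNQ5, the calcium- and sodium-activated pores KCNMA1 and KCNT2, and the non-coding KCNQ1OT1. KCNK5 was at 9.30 and 11.7 CPM in the DMSO libraries of H1975 and 8.14 and 7.75 CPM in its ACBI1 libraries (adjusted p 0.0969). KCNAB3 was at 9.13 and 4.39 CPM in the DMSO libraries of H1975 and 4.86 and 1.94 CPM in its ACBI1 libraries. KCNMB4 in H1975, from 7.19 and 5.19 to 4.34 and 2.90 CPM, lay at the threshold (adjusted p 0.0516). These 3 genes were lower with ACBI1 within each replicate number, and with that number as a block all 3 were called in H1975, KCNAB3 at -1.03 (adjusted p 0.000633), KCNMB4 at -0.78 (0.00333) and KCNK5 at -0.39 (0.0481). KCNAB3 was also called with DESeq2 (0.0339) and without the filter (0.00771), as was KCNMB4 without the filter (0.0137), and both without ACBI1 replicate 1 (-1.76 and -1.06). KCNT2 had no read in H1975. In HCC44 it was at 8.09 and 8.35 CPM with DMSO and 12.6 and 10.6 CPM with ACBI1 (adjusted p 0.0744). There KCNT2 was called with library totals (0.0425), with each line fitted alone (0.0387) and with the block (0.0267). KCNQ1OT1, the imprinted antisense transcript of the KCNQ1 locus, was at 6.54 and 5.81 CPM with DMSO and 4.23 and 5.22 CPM with ACBI1 in H1975, where KCNQ1 rose. Members named here beyond KCNK5, KCNQ5, KCNT2, KCNAB3 and KCNMB4 were named after their values were seen.

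The 47 untested genes had group means of at most 0.165 CPM. They include all 8 KCNA pore genes and both KCNV genes. Of the 47, 37 had at least 1 read in some library. KCNH8 was read 12 and 9 times in the DMSO libraries of H1975, 3 and 0 times in its ACBI1 libraries and never in HCC44. KCNK10 was read 0 and 1 times, then 5 and 7 times, in the same order. At these counts no change was tested. KCNH8, KCNK10, KCNJ3, KCNJ8 and KCNJ9 lie outside the naming rule and were named after their values were seen.

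Other genes of potassium transport were examined beside the channels, as a list of 29 partner, pump and cotransporter genes, of which 17 were tested. In H1975 4 rose and 4 fell (47.1% called, against 31.3% of all genes tested), with a median log2 fold change of -0.25. In HCC44 4 rose and 7 fell (64.7%, against 34.9%), with a median of 0.10, opposite in sign to the balance of calls. The difference between the lines was called for 2 (11.8%, against 18.6% of all genes tested). ATP1B1, a beta subunit of the sodium-potassium pump, rose in H1975 (0.35 ± 0.11) and fell in HCC44 (-0.70 ± 0.11), with a called difference (adjusted p 0.00144).

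Hyperpolarization-activated channels, which pass sodium and potassium, rose in both lines for HCN2 and HCN3, while HCN4 fell in HCC44 from 0.541 and 0.314 to 0.0800 and 0.0944 CPM. HCN3 went from 6.38 and 3.88 to 11.5 and 7.95 CPM in H1975 (adjusted p 0.0483). In HCC44 it went from 9.65 and 6.94 to 28.4 and 42.0 CPM. HCN2 went from 3.21 and 3.14 to 6.05 and 7.30 CPM and from 1.59 and 1.40 to 4.30 and 7.52 CPM. In both genes and both lines the ACBI1 libraries lay above the DMSO libraries. AMIGO1, a partner of voltage-gated channels, also rose in both lines, by 1.39 ± 0.22 in H1975 and 0.59 ± 0.21 in HCC44 on the log2 scale. REST, the repressor that silences neuronal channel genes in other cells, fell in H1975 from 65.4 and 75.7 to 53.3 and 58.5 CPM (log2 fold change -0.34 ± 0.11 (SE), adjusted p 0.0455) and was at 78.6 and 89.2 CPM with DMSO and 83.2 and 96.9 CPM with ACBI1 in HCC44, which was not called. The difference between the lines for REST was not called (adjusted p 0.0851). The H1975 calls of REST and HCN3 lay near the threshold, and how they depend on the processing was not examined gene by gene. Of the related genes 4 fell in H1975, against 3 with DESeq2 and 2 with library totals.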

How the data were processed

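RNA was measured in 8 libraries, 2 for each line and treatment. The authors deposited 1 table of read counts per gene name and library. Per the submitters' processing notes, TopHat2 2.1.1, HTSeq 0.11.0 and the build hg38 were used. The annotation and the strand setting are not given in the sources used here, so genes that overlap others are uncertain. The 5 summary rows, 14.3 to 15.8% of each table's total, were left out. Replicates differed by more than sampling noise (chi-square per degree of freedom 24.0 to 48.4).

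With edgeR 4.0.16 in R 4.3.3, filterByExpr on the 4 groups kept 21307 of 61228 genes, TMM factors were computed, and the 4 group means were estimated in 1 robust quasi-likelihood model of the 8 libraries (4 residual degrees of freedom). Tests were two-sided F-tests with Benjamini-Hochberg adjustment over all genes. The SE was taken from the fold change and the root of its F statistic. The procedure was tested on simulated counts.

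Ratios of summed counts of 10 or fewer in a group carry exact 95% intervals for counting error only, and the floor for 0 counts was 3. Lengths, positions and exon overlaps came from GENCODE 29, matched by name for all 99 members, and promoters from RefSeq (GRCh38.p14), which matched 73. Genes were named by rule: KCNJ11 and ABCC8, the 8 highest per kb in each line's DMSO group, up to 10 rises and 10 falls per line at 1 CPM or more, and up to 5 called differences in each direction for the lines and their responses. A few genes are not reported here by name, though the counts include them. The members, lists and rule were chosen with earlier results of these data known. Alternatives were DESeq2 1.42.0, RLE, upper-quartile and library-total scaling, no filter, 1 CPM in 2 libraries, each line alone, the replicate block, a minimum log2 fold change of 1, and each library left out. Figures were drawn with matplotlib 3.10.9.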

Additional observations from a re-analysis of the deposited data

Results flagged for a closer look

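A test of the difference itself separated the ACBI1 responses of H1975 and HCC44 for 10 channel genes, of which 8 are given here as HCC44 minus H1975 on the log2 scale. The difference was 3.57 for KCNF1 (adjusted p 0.0286), 2.02 for KCNJ15 (0.0126) and 1.25 for KCNJ12 (0.0175). It was -0.877 for KCNJ14 (0.0173), -1.13 for KCND1 (0.0142), -1.3 for KCNH2 (0.0403), -2.08 for KCNAB2 (3.4e-05) and -2.2 for KCNN3 (0.0205). KCNF1 had 8 counts in HCC44 DMSO and 4 to 9 counts in each H1975 library, and how its difference depends on single libraries was not examined. KCNJ15 fell in H1975 and was at 0.461 and 0.611 CPM with DMSO and 0.992 and 0.676 CPM with ACBI1 in HCC44, and its difference was not called without HCC44 DMSO replicate 1 (1.82). KCNN3 was not called without H1975 DMSO replicate 1 (-2.10), H1975 DMSO replicate 2 (-2.35) or HCC44 DMSO replicate 1 (-2.12). KCNH2 was not called when any 1 of the 8 libraries was left out (-1.49 to -1.07), nor without the filter (-1.29).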

How the results depend on the processing

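The counts of called channel genes stayed within 1.5 times under all alternatives for the H1975 response (15 to 26, against 20), the HCC44 response (17 to 25, against 20) and the comparison of the DMSO groups (32 to 49, against 43). For the difference between the responses the count was 5 to 10 with 1 library left out, against 10, and 9 to 13 otherwise. Library totals moved the median of all genes from -0.01 to 0.18 in H1975 and from -0.08 to -0.20 between the DMSO groups, and directions in the text hold on the TMM scale. For the genes named by rule no called change reversed its sign.

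With the replicate number as a block, 26 channel genes were called in H1975, 25 in HCC44, 13 for the difference and 42 between the DMSO groups. Same-numbered libraries deviated together (correlations of 0.374 for H1975 and 0.109 for HCC44). With 2 such pairs a line, and no batch or day in the labels, the numbers were not taken as pairs. Among related transport genes the difference was called for 10 genes with the block, 6 with DESeq2, 6 without the filter and 5 with library totals, against 2, and for 2 to 5 with 1 library left out. Their H1975 count of 8 was 4 with a minimum log2 fold change of 1 and 4 to 8 with 1 library left out, and the HCC44 count of 11 was 4 and 6 to 11. At a minimum of 5 CPM, 12 channel genes were expressed in H1975 DMSO, 11 in H1975 ACBI1, 12 in HCC44 DMSO and 11 in HCC44 ACBI1, against 24, 26, 18 and 25 at 1 CPM. Depth limits genes under 0.2 CPM, where a library holds few reads.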
